A study of Mus musculus with 18 samples.

Results

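The genes examined were 43 genes of glycolysis, the citrate cycle and mevalonate synthesis that have been linked to trained immunity, out of 21938 protein-coding genes in the GENCODE vM21 annotation of the mouse genome (mm10). They were taken from a list of names, drawn up with earlier results of these data known. For each gene, peaks of acetylated lysine 27 of histone H3 (H3K27ac) were looked up within 5 kb of the gene start, and peaks of trimethylated lysine 27 (H3K27me3) were looked up over the gene body with 5 kb before it and 1 kb after it. The chromatin came from bone marrow-derived macrophages (BMDM) of wild-type (WT) mice, of dystrophin-deficient mdx mice and of mdx mice that also lack Toll-like receptor 4 (mdxTLR4-/-, labelled mTLR4 or mdxTLR4), all cultured for 7 days without stimulation. The labelled strains were C57BL6 for WT, Dmdmdx-4Cv for mdx and Bl6/Bl10 for mdxTLR4-/-, whereas the methods of the study place all mice on C57BL/6J. Of the 18 samples, the H3K27me3 series held 2 ChIP and 2 input libraries per genotype, and the H3K27ac series held 2 WT, 2 mdx and 1 mdxTLR4-/- ChIP library with 1 input. By the labels the H3K27me3 ChIP samples came from WT mice of 12 and 13 weeks, mdx mice of 14 and 15 weeks and mdxTLR4-/- mice of 16 and 17 weeks, and the H3K27ac samples from WT mice of 19 and 20 weeks, mdx mice of 21 and 22 weeks and an mdxTLR4-/- mouse of 23 weeks, so that labelled age and genotype cannot be told apart. The labelled ages rise by 1 week from sample to sample through the series, and the inputs carry other ages than their ChIP samples, so whether these are the true ages is not known. The replicates were merged before peaks were called, which left 1 peak list per mark and genotype. Differences between genotypes were therefore differences between lists, with no spread between mice and no test.

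Glycolysis splits glucose to pyruvate in the cytosol and yields lactate when pyruvate is reduced. The citrate cycle oxidises acetyl units in mitochondria, and its intermediates citrate, succinate, fumarate and itaconate act as signals in activated macrophages. The mevalonate pathway builds sterols and isoprenoids from cytosolic acetyl-CoA. In trained immunity, a lasting change of innate cells after a first stimulus, a shift towards glycolysis under mTOR and HIF-1α, fumarate and mevalonate have each been tied to the histone marks that persist. H3K27ac marks active promoters and enhancers, and H3K27me3, laid down by Polycomb, marks silenced genes.

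The unit throughout is the count of ChIP reads in a peak, not scaled for depth or peak length, so counts of different genes also follow the length of their peaks. In the order WT, mdx and mdxTLR4-/-, the H3K27ac lists held 15665, 12076 and 12493 peaks with 274020, 191629 and 168487 reads, and the H3K27me3 lists held 28143, 41780 and 36488 peaks. Library depth is unknown, since the lists give peaks only. The H3K27ac peaks were shallow, with a median of 10, 10 and 8 reads and a minimum of 5 in each list, so a gene without a peak had none past the caller's limit and gets no fold. Macrophage markers carried H3K27ac within 5 kb of the start at 9 of 9 genes in WT, 8 of 9 in mdx (all but Csf1r) and 9 of 9 in mdxTLR4-/-, with 660, 416 and 405 summed reads. Of 20 markers of T cells, B cells, neutrophils, fibroblasts and muscle, only Cd79a had a peak, with 11 reads in WT. Tlr4 had a peak in every list, with 44 reads in WT against 29 in mdx and 28 in mdxTLR4-/-, so the lists do not show the loss of the receptor. In these bulk samples, fewer cells that carry a mark and less of the mark per cell cannot be told apart.

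The sequences shown are a selection of promoters and leave out most genes that differed between genotypes. They are those of genes whose H3K27ac peak was in the WT list alone (Acly, Mvk) or in the mdx list alone (Acod1, Mvd), the internal start of Hif1a, and the pair of phosphoglycerate mutase genes Pgam1 and Pgam2, which lay apart in both marks. Each is the 250 bases before the RefSeq start (GRCm38.p6, the assembly of mm10), 5′ to 3′ in the direction of transcription, with CG dinucleotides in capitals. The RefSeq table gave a promoter for 40 of the 43 genes and none for Idh3a, Slc2a3 and Sqle.
Acly, chr11:100528001-100528250, minus strand: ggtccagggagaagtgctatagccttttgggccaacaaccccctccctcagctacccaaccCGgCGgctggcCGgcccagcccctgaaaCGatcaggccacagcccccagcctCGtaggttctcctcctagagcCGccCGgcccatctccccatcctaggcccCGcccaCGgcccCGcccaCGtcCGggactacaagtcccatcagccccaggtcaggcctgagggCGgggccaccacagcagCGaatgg
Mvk, chr5:114444019-114444268, plus strand: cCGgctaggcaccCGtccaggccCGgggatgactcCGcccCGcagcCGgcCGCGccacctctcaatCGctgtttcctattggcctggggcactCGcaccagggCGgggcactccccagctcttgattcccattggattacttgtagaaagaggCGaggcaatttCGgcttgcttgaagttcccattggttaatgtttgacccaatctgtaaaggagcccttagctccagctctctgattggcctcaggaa
Acod1, chr14:103046762-103047011, plus strand: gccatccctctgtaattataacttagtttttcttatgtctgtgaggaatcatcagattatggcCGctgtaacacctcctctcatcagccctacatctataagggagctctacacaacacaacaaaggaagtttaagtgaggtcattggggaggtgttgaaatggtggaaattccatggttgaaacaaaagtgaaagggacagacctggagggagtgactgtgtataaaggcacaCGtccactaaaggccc
Mvd, chr8:122443423-122443672, minus strand: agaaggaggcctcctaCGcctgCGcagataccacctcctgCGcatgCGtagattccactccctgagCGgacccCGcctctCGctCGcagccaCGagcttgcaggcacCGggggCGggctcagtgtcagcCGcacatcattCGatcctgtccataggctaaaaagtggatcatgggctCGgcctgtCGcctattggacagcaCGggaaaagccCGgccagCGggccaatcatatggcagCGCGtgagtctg
Hif1a, chr12:73907617-73907866, plus strand: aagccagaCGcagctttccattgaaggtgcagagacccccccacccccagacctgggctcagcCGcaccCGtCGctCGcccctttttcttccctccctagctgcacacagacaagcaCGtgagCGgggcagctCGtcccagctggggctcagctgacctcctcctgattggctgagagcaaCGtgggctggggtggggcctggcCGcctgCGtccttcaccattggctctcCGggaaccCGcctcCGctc
Pgam1, chr19:41911621-41911870, plus strand: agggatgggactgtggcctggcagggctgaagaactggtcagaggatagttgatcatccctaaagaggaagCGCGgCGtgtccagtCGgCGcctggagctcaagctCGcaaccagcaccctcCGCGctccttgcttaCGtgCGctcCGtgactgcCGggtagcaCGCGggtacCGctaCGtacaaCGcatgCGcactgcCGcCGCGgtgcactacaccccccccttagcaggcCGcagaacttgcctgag
Pgam2, chr11:5803797-5804046, minus strand: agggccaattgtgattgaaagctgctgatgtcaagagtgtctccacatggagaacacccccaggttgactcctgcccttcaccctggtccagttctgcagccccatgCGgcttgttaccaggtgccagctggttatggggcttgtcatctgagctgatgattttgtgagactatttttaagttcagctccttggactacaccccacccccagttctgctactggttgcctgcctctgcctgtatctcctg

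The promoters of the set were rich in CG. Over the 40 promoters the median was 14 CG dinucleotides, from 0 in Aldoa to 29 in Slc16a3, and over all 32851 promoters of the table it was 6. Each member entered with the 1 RefSeq start nearest its gene start, whereas the 32851 promoters include alternative starts of the same gene. The 2 sets are therefore not alike, here and for the motifs below. Among the printed promoters Pgam1 held 22, Mvd 20, Acly and Hif1a 14 and Mvk 13, whereas Acod1 held 2 and Pgam2 held 1. The core of the hypoxia response element, ACGTG or GCGTG on either strand, was found in 27 of the 40 promoters (67.5%) and in 38.6% of all promoters, and the letters themselves hold a CG. The sterol element core CACCCCAC, on either strand, was found in Pgam2 and Hmgcs1 (5.0%, against 2.58% of all promoters). The TATA box letters TATAAA, on either strand, were found in Acod1 and Eno2 (5.0%, against 12.4%). The Acod1 promoter above is the only one of the 7 printed that holds TATAAA. These matches describe the letters and not sites that were tested.

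H3K27ac lay near the start of more of these genes than of protein-coding genes in general. A peak was listed within 5 kb of the start for 28 of 43 genes in WT (65.1%, against 32.0% of protein-coding genes), for 25 in mdx (58.1%, against 27.4%) and for 21 in mdxTLR4-/- (48.8%, against 29.4%). The gene start itself lay under a peak for 21 genes in WT (24.0% of protein-coding genes), 17 in mdx (20.6%) and 14 in mdxTLR4-/- (20.9%). In the 3 lists 17 genes had a peak throughout (39.5%, against 21.1%) and 12 genes had none (27.9%, against 61.5%). The remaining 14 genes had a peak in 1 or 2 lists. Of these, 6 were listed in WT and mdx (14.0%, against 2.77%) and 3 in WT and mdxTLR4-/- (6.98%, against 3.86%). A peak in WT only was found for 2 (4.65%, against 4.23%), in mdx only for 2 (4.65%, against 2.05%) and in mdxTLR4-/- only for 1 (2.33%, against 2.96%). No gene had a peak in mdx and mdxTLR4-/- alone (background 1.49%). These shares are over all genes, with and without a peak. Where only peaks of at least 10 reads were kept, the counts were 23 in WT (53.5%, against 24.4%), 20 in mdx (46.5%, against 19.8%) and 13 in mdxTLR4-/- (30.2%, against 17.0%). The share of listed genes that this removed was highest in mdxTLR4-/- both for members (38.1%) and for protein-coding genes (42.3%).

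**Figure D1:**
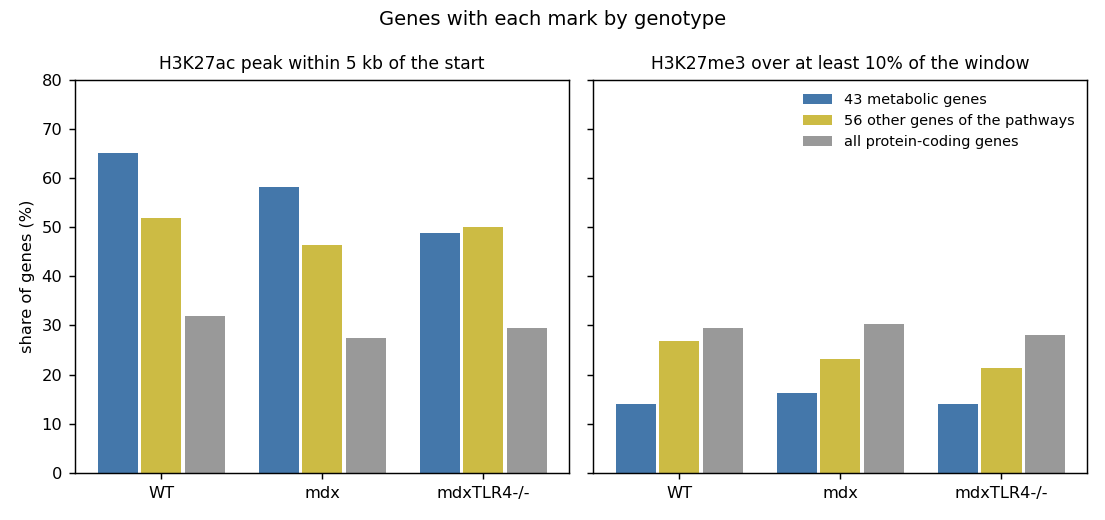
Share of genes (y axis, percent) with an H3K27ac peak within 5 kb of the start (left) and with H3K27me3 over at least 10% of the gene window (right), by genotype, for the 43 metabolic genes, 56 other genes of the same pathways and all protein-coding genes. The 43 genes stood above all protein-coding genes for H3K27ac in each list, falling from 65.1% in WT to 48.8% in mdxTLR4-/-, and below them for H3K27me3.

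Glucose entry and its first phosphorylation were split between hexokinases with and without H3K27ac at the start. Hk3, a hexokinase of blood cells, had 54 reads in WT against 28 in mdx and 27 in mdxTLR4-/-. Hk2, the inducible hexokinase, had 17, 13 and 7, with a further peak in the gene body 8.85 to 11.3 kb downstream that held 27, 12 and 8 reads. Slc2a1, the main glucose carrier of activated macrophages, had no peak near its start in any list, but it had peaks 15.3 to 19.9 kb downstream inside the gene, with 16 and 6 reads in WT, a peak of 24 in mdx and one of 8 in mdxTLR4-/-. Slc2a3, a high-affinity glucose carrier, and Hk1, the widely expressed hexokinase, were also without a peak near the annotated start. For Hk1 peaks lay around a coding start inside the gene, between 37.5 and 43.5 kb downstream, with 21 and 11 reads in WT, a peak of 23 in mdx and one of 16 in mdxTLR4-/-.

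All 7 genes of the middle of glycolysis had a peak in WT, the fullest group, with 13 to 57 reads. Aldoa, which splits fructose bisphosphate, had the most, with 57, 34 and 35 reads in the WT, mdx and mdxTLR4-/- lists, mostly in a peak that also held the start of Fam57b. Gapdh, which makes the first NADH of the pathway, had 37, 34 and 15 reads over its start. Gpi1, the isomerase of glucose 6-phosphate, had 22, 16 and 12. The subunits of phosphofructokinase, which commits sugar to glycolysis, differed among lists. Pfkl, the liver-type subunit, had 15 reads in WT and 14 in mdx and was not listed in mdxTLR4-/-. Pfkp, the platelet-type subunit, had the fewest reads of the group in WT (13), was not listed in mdx and had 8 in mdxTLR4-/-. Pfkm, the muscle-type subunit, had 30, 10 and 21 reads, in 2 peaks in WT (13 and 17), 1 in mdx and 2 in mdxTLR4-/- (5 and 16). The WT peak of 17 reads and the mdx peak held the start of the neighbour Senp1 and 1 and 2 of the 4 coding starts of Pfkm, and the mdxTLR4-/- peak of 16 reads held the annotated start of Pfkm. Tpi1, the triose phosphate isomerase, had 47, 18 and 5 reads, all in a peak that began at least 3.3 kb downstream and held the start of Spsb2 and not that of Tpi1.

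At the end of glycolysis the general isozymes carried H3K27ac. Pkm, pyruvate kinase, had the most reads of all 43 genes, with 59 in WT, 33 in mdx and 28 in mdxTLR4-/-. Eno1, the general enolase, had 31, 14 and 20 reads, highest in WT and lowest in mdx. Pgam1, the general phosphoglycerate mutase, had the fewest of the listed genes of the group in WT, with 18 reads, then 14 in mdx, and no peak in mdxTLR4-/-, where the nearest lay 15.7 kb away. Its peaks covered the CG-rich promoter printed above in both lists. Ldha, which reduces pyruvate to lactate, had 35 reads in WT and 19 in mdx and was not listed in mdxTLR4-/-. Of these, 25 and 10 reads lay in a peak that in WT ran from 3.33 to 6.12 kb downstream of the annotated start, which held most of the other annotated starts of Ldha. Slc16a3, the lactate exporter MCT4, was listed in mdxTLR4-/- alone, with 5 reads, the smallest number in the lists. The muscle isozyme Eno3 had 24, 19 and 14 reads, upstream of its start in WT and mdxTLR4-/- and, in mdx, in a peak over its start and that of Pfn1. Pgam2, Eno2 and Ldhb, the isozymes of muscle, neurons and heart, had no peak in any list, and the nearest lay 13.5 to 14.1 kb away for Pgam2, 27.5 to 28.1 kb for Eno2 and 91.0 to 238.2 kb for Ldhb.

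**Figure D2:**
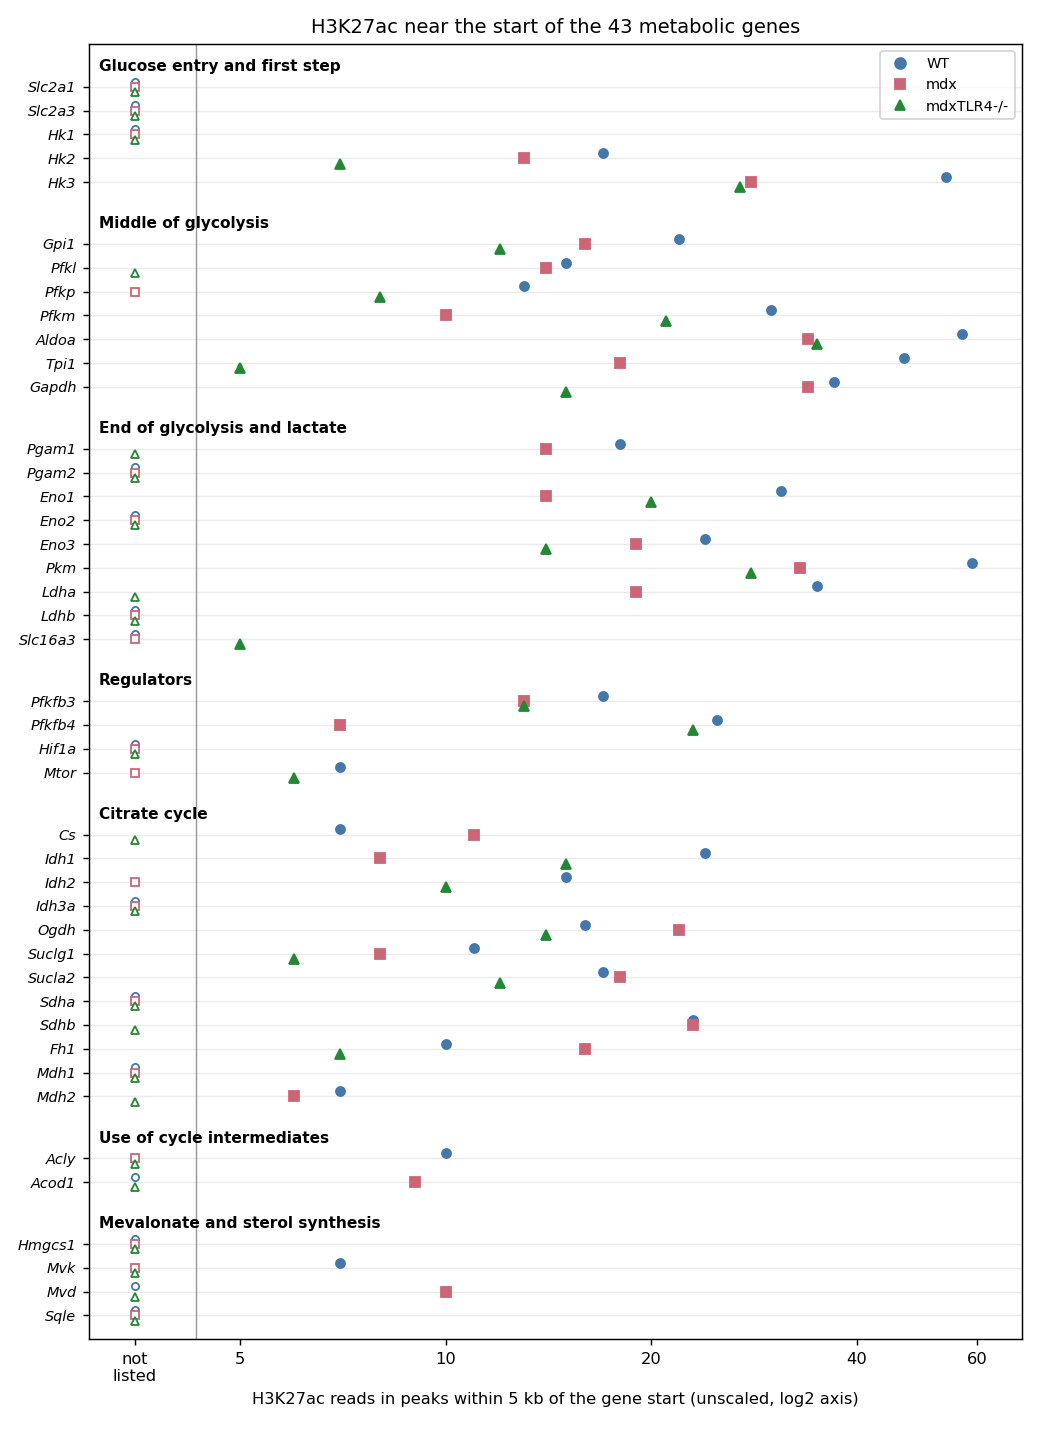
H3K27ac reads in peaks within 5 kb of the start (x axis, unscaled reads on a log2 scale) for each of the 43 genes, grouped by role, in WT (circles), mdx (squares) and mdxTLR4-/- (triangles), with open symbols at the left for genes not listed. Each symbol is 1 list of merged replicates without an error bar; WT was highest for most listed genes, up to 59 reads for Pkm, and the citrate cycle and mevalonate genes lay at 24 reads or fewer.

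Among the regulators the bifunctional enzymes that set fructose 2,6-bisphosphate were listed throughout. Pfkfb3 had 17, 13 and 13 reads. Pfkfb4 had the most reads of the group in WT, with 25, then 7 in mdx and 23 in mdxTLR4-/-. In WT its peak lay over the start, in mdx it began 3.02 kb downstream, and in mdxTLR4-/- there were 3 peaks of 9, 5 and 9 reads on both sides of the start. A stretch of its gene body 25.0 to 32.8 kb downstream was acetylated in each list, with peaks of 7 and 32 reads in WT, one of 32 in mdx and one of 20 in mdxTLR4-/-. Mtor, the kinase that links growth signals to glycolysis, had the fewest reads of the group, 7 in WT over its start, none listed in mdx and 6 in mdxTLR4-/- in a peak 3.81 kb upstream. Hif1a, the hypoxia-inducible factor that drives glycolytic genes, had no peak within 5 kb of its annotated start. A peak began 5.03 kb downstream, over the RefSeq start and the whole promoter printed above, with 11 reads in WT and 26 in mdx, and no peak lay there in mdxTLR4-/-. The ratio of mdx to WT in that peak was 2.36 (95% counting interval 1.13 to 5.30).

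In the citrate cycle 4 of 12 genes were listed in some genotypes and not in others, the same share as at the end of glycolysis (3 of 9). A peak was listed for 9 of 12 genes in WT, 8 in mdx and 6 in mdxTLR4-/-. Idh1, the cytosolic isocitrate dehydrogenase, had the most in WT, with 24 reads, then 8 in mdx and 15 in mdxTLR4-/-. In mdx and mdxTLR4-/- that peak also held the start of Pikfyve. A larger gene-body peak 5.7 to 11.3 kb downstream held 50, 26 and 19 reads. Cs, citrate synthase, had among the fewest in WT, with 7 reads against 11 in mdx, and was not listed in mdxTLR4-/-. Mdh2, the mitochondrial malate dehydrogenase, had 7 and 6 reads in WT and mdx, in a peak shared with the start of Styxl1, and was not listed in mdxTLR4-/-. Sdhb, the iron-sulfur subunit of succinate dehydrogenase, had 23 reads in both WT and mdx and none listed in mdxTLR4-/-, where the nearest peak lay 8.60 kb away. Idh2, the mitochondrial NADP-linked isocitrate dehydrogenase, had 15 reads in WT, no peak in mdx and 10 reads in mdxTLR4-/-. Fh1, which hydrates fumarate, had 10, 16 and 7 reads, and Ogdh, the E1 subunit of the oxoglutarate dehydrogenase complex, had 16, 22 and 14, so both were highest in mdx. Suclg1 and Sucla2, subunits of succinyl-CoA ligase, had 11, 8 and 6 reads and 17, 18 and 12 reads. Idh3a, Sdha and Mdh1 had no peak near the start. Mdh1, the cytosolic malate dehydrogenase, had one 7.57 to 9.37 kb downstream in each list, with 17, 7 and 8 reads.

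The 2 enzymes that draw on cycle intermediates were each listed in 1 genotype, and not the same one. Acly, which turns exported citrate into acetyl-CoA for lipids and histone acetylation, had 10 reads over its start in WT and no peak in mdx or mdxTLR4-/-, the nearest being 42.6 and 90.2 kb away. Acod1, which makes itaconate from cis-aconitate and is induced by TLR4 ligands, had 9 reads in mdx in a peak from 24 bp to 2.22 kb downstream of its start and no peak in WT or mdxTLR4-/-, the nearest being 11.0 and 11.8 kb away. Of the 4 mevalonate genes, 2 were each listed in 1 genotype. Mvk, mevalonate kinase, had 7 reads in WT alone, in a peak that also held the start of Mmab. Mvd, the decarboxylase that makes isopentenyl diphosphate, had 10 reads over its start in mdx alone. Hmgcs1, HMG-CoA synthase, and Sqle, squalene epoxidase, had no peak in any list, the nearest lying 21.8 to 22.2 kb and 50.5 to 50.9 kb away. These 4 peaks, each seen in 1 genotype, held 10 reads or fewer, against a list median of 10 in WT and mdx. Genes with a peak in WT only made up 4.65% of the set, against 4.23% of protein-coding genes. Those with a peak in mdx only made up 4.65%, against 2.05%.

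**Figure D3:**
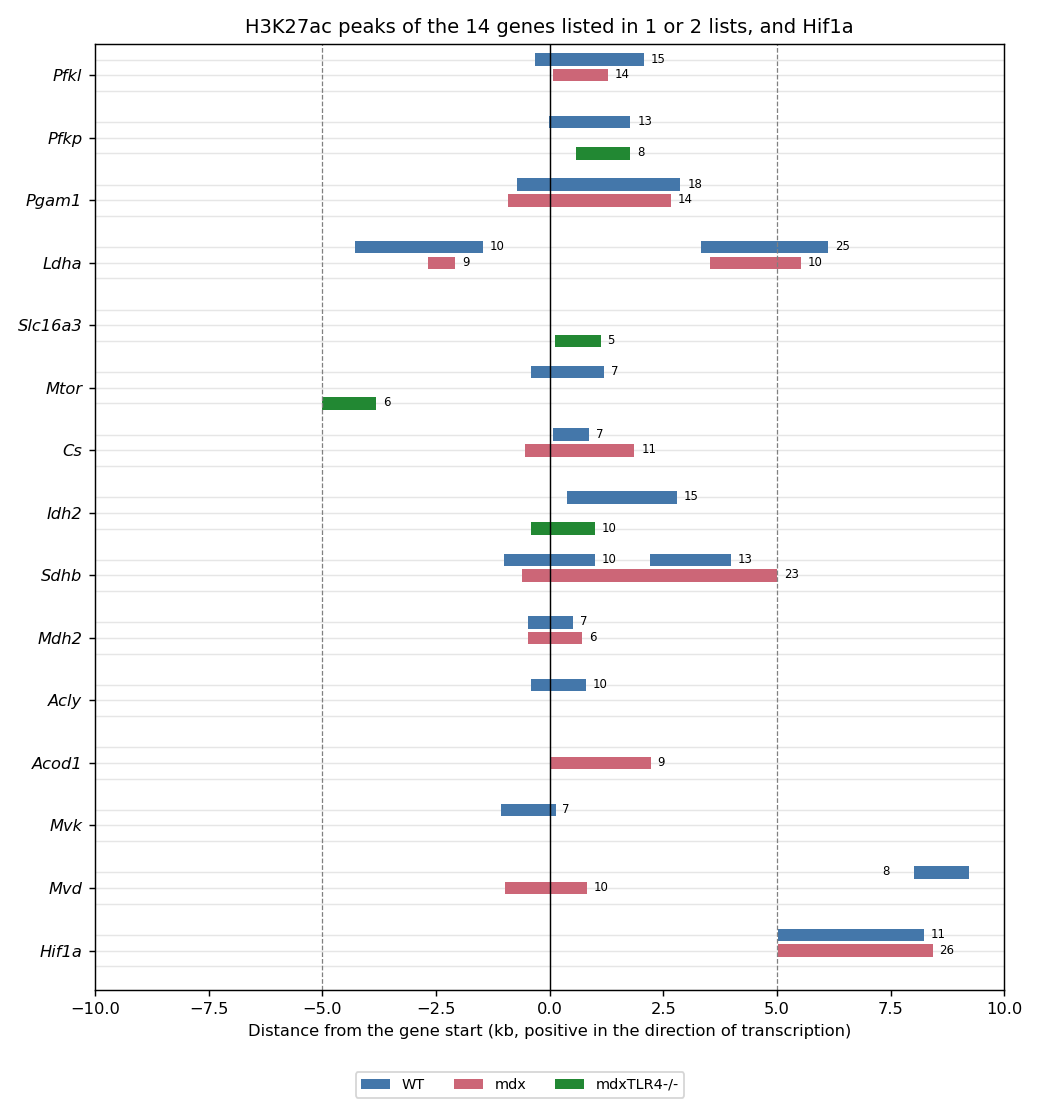
Position of H3K27ac peaks (bars) relative to the gene start (x axis, kb, positive downstream; dashed lines at 5 kb) for the 14 genes listed in 1 or 2 lists and for Hif1a, with 1 row each for WT, mdx and mdxTLR4-/- from top to bottom and the read count beside each bar. Green bars are missing for Pfkl, Pgam1, Ldha, Cs, Sdhb and Mdh2, which have bars in WT and mdx, and also for Acly, Acod1, Mvk, Mvd and Hif1a. The Hif1a peak of 11 reads in WT and 26 in mdx begins just past the window.

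The comparison of mdx with WT sets the list from macrophages of dystrophic mice beside that of healthy mice. Labelled age also differed, so it cannot be told apart from genotype. Pfkp, Mtor, Idh2, Acly and Mvk had a peak in WT and not in mdx (5 of 43, 11.6%, against 8.08% of protein-coding genes), and Acod1 and Mvd had one in mdx and not in WT (2 of 43, 4.65%, against 3.54%). Members had a peak in WT more often than other genes did. Among genes with a peak in WT, the share without one in mdx was 17.9% of members (5 of 28) against 25.3%, and among genes with a peak in mdx the share without one in WT was 8.0% (2 of 25) against 12.9%, so on this basis both shares were below the background. Acly and Mvk were listed in WT only (4.23% of protein-coding genes) and Acod1 and Mvd in mdx only (2.05%). For the 23 genes with a peak in both lists the median ratio of reads was 0.765 (order-statistic interval over genes 0.543 to 0.919), lower in mdx for 18, higher for 4 and equal for Sdhb. The median over 5242 protein-coding genes was 0.778, and 9 of the 23 genes lay above it and 13 below it. Scaled to equal reads in peaks the median of the 23 genes was 1.09, above 1. Relative to the median gene, Pfkm, Tpi1, Pfkfb4 and Idh1 were at least 2-fold lower in mdx (4 of 23, 17.4%, against 5.72%). Their intervals also excluded the median gene (background 5.59%). The lowest ratios were 0.28 for Pfkfb4 (95% counting interval 0.102 to 0.666), 0.333 for Pfkm (0.145 to 0.701) and 0.333 for Idh1 (0.1295 to 0.767). For Pfkfb4 the WT peak lay over the start and the mdx peak began 3.02 kb downstream. The 2 peaks did not overlap, so this ratio sets different stretches side by side. Counted over every coding start, Idh1 had 74 reads in WT and 34 in mdx, a smaller gap. Cs and Fh1 were at least 2-fold higher relative to the median gene (2 of 23, 8.70%, against 5.99%), and the interval of each held the median gene. No gene of the set had an interval above it (background 4.92%).

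The comparison of mdxTLR4-/- with mdx sets dystrophic mice without and with TLR4 side by side, and its mdxTLR4-/- list rested on 1 library. Labelled strain and labelled age differed as well and cannot be told apart from the loss of TLR4. Pfkl, Pgam1, Ldha, Cs, Sdhb, Mdh2, Acod1 and Mvd had a peak in mdx and not in mdxTLR4-/- (8 of 43, 18.6%, against 4.82%). The first 6 of them had a peak in WT as well, a pattern of 6 of 43 genes (14.0%, against 2.77%), made up of 3 glycolytic and 3 citrate cycle genes. Among genes with a peak in mdx, the share without one in mdxTLR4-/- was 32.0% of members (8 of 25) against 17.6%, and among genes with a peak in both WT and mdx it was 26.1% (6 of 23) against 11.6%. The reads of the 6 genes ranged from 7 to 35 in WT and from 6 to 23 in mdx. The reverse, a peak in mdxTLR4-/- and not in mdx, was found for Pfkp, Slc16a3, Mtor and Idh2 (4 of 43, 9.30%, against 6.82%), or 19.0% of the 21 genes with a peak in mdxTLR4-/-, against 23.2%. Pfkp, Mtor and Idh2 were listed in both WT and mdxTLR4-/- (3.86%), and Slc16a3 was listed in mdxTLR4-/- only (2.96%). Over the 17 genes with a peak in both lists the median ratio was 0.75 (0.636 to 1.03), and over 4961 protein-coding genes it was 0.875. Per kb of peak, the median of the 17 genes was 1.01, on the other side of 1. Relative to the median gene, Pfkm, Pfkfb4 and Idh1, all low in mdx, were at least 2-fold higher in mdxTLR4-/- than in mdx (3 of 17, 17.6%, against 6.31%). The intervals of Pfkm (2.1, 0.946 to 4.99) and Pfkfb4 (3.29, 1.365 to 9.07) lay above the median gene (background 5.42%). For Pfkfb4 the mdxTLR4-/- count sums 3 peaks, and only the one from 2.82 kb downstream, with 9 reads, overlapped the mdx peak of 7 reads. Counted over every coding start, Idh1 had 34 reads in mdx and 40 in mdxTLR4-/-, and the counts of Pfkm and Pfkfb4 did not change. In the gene-body peaks given above, reads were lower in mdxTLR4-/- than in mdx at Idh1 (19 against 26) and Pfkfb4 (20 against 32). Tpi1 and Fh1 were at least 2-fold lower (2 of 17, 11.8%, against 6.71%), and the intervals of Tpi1 and Gapdh lay below the median gene (background 4.50%). The values of mdx enter both comparisons, so a low count in mdx lowers one ratio and raises the other.

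Set directly against WT, mdxTLR4-/- had fewer of these genes listed. Pfkl, Pgam1, Ldha, Cs, Sdhb, Mdh2, Acly and Mvk had a peak in WT and not in mdxTLR4-/- (8 of 43, 18.6%, against 7.00%), and Slc16a3 alone showed the reverse (1 of 43, 2.33%, against 4.45%). Among genes with a peak in WT the gap was smaller, with 28.6% of members (8 of 28) missing from mdxTLR4-/- against 21.9%. Among genes with a peak in mdxTLR4-/-, 4.76% of members (1 of 21) had none in WT, against 15.1%. All 20 genes with a peak in both lists had fewer reads in mdxTLR4-/-, with a median ratio of 0.620 (0.546 to 0.70), against 0.688 over 5480 protein-coding genes. Scaled to equal reads in peaks the median of the 20 genes was 1.01. Relative to the median gene, 13 of the 20 lay below and 7 above. Tpi1 was the only one at least 2-fold lower (1 of 20, 5.0%, against 6.77%), with a ratio of 0.106 (0.0330 to 0.266) and an interval below the median gene (background 5.53%), in the peak that held the Spsb2 start. None was at least 2-fold higher (background 6.06%) or had an interval above the median gene (4.96%). The ratios of Pfkm, Pfkfb4 and Idh1 to WT were 0.7, 0.92 and 0.625.

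**Figure D4:**
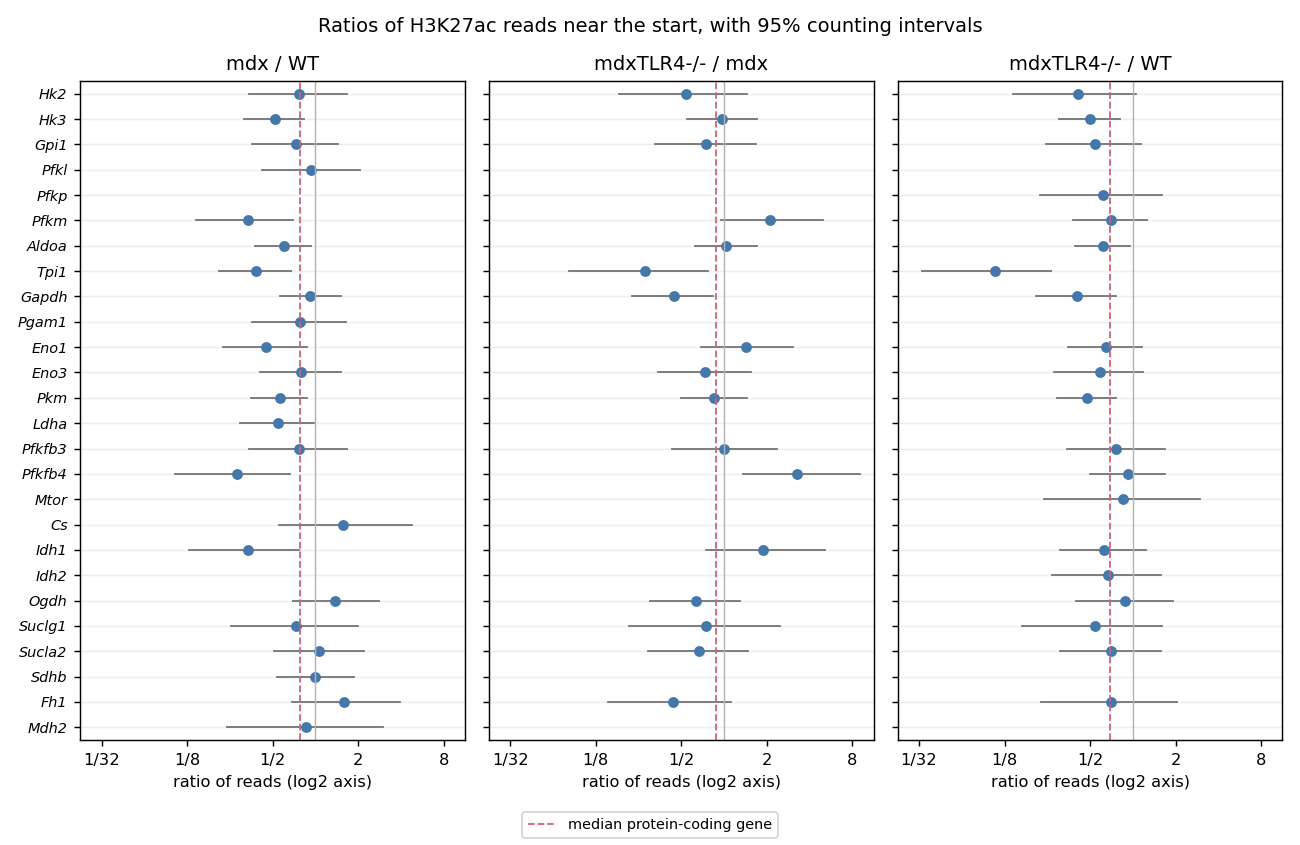
Ratio of H3K27ac reads near the start (x axis, log2 scale) of mdx to WT, mdxTLR4-/- to mdx and mdxTLR4-/- to WT for the genes with a peak in both lists, with exact 95% intervals that cover counting error only, a grey line at 1 and a dashed line at the median protein-coding gene. Pfkm, Pfkfb4 and Idh1 lay left of the dashed line in the first panel and right of it in the second, and Tpi1 lay left of it in all 3.

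H3K27me3 was listed over fewer of the 43 genes than of protein-coding genes in general. At least 10% of the gene window was covered in 6 of 43 genes in WT (14.0%, against 29.4% of protein-coding genes), 7 in mdx (16.3%, against 30.2%) and 6 in mdxTLR4-/- (14.0%, against 28.1%). Any peak was found in 10, 10 and 11 genes, against 38.4%, 41.3% and 39.0% of protein-coding genes, and 30 of the 43 genes had no peak in any list. Slc2a3 was covered over 92.4% of its window in both WT and mdx and over 86.4% in mdxTLR4-/-, by a domain that held 3979 reads over 73.2 kb in WT (chr6:122724401-122797600). The annotated start of Slc2a3 lay under a peak in WT alone, a separate one of 69 reads. The nearest peak edge lay 1.04 kb downstream of the start in mdx and 4.24 kb downstream in mdxTLR4-/-. Eno2, the neuronal enolase, was covered over 93.6%, 87.5% and 85.0%, with all 6 of its coding starts under a peak in each list. Both genes were thus covered almost end to end in every genotype, and neither had H3K27ac near its start. Hk1 was covered over 16.7%, 12.0% and 12.1%, in part around its upstream start. In each list a further peak lay between 12.1 and 20.9 kb downstream and held another coding start. H3K27ac of Hk1 lay further downstream, around the coding start given above and, in WT and mdxTLR4-/-, also elsewhere in the gene body. Ldhb, the heart-type lactate dehydrogenase, was covered over 9.28%, 15.2% and 12.65%, with its start under a peak in each list.

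Changes of at least 10 percentage points between lists were seen at 4 genes. Pgam2, the muscle mutase, was covered over 43.65% of its window in WT, over 24.7% in mdx and not at all in mdxTLR4-/-. Its peak lay upstream, from 1.47 to 10.7 kb before the start with 205 reads in WT and from 2.67 to 4.67 kb before it with 57 reads in mdx, and so did not reach the CG-poor promoter printed above. Idh2 was covered over 12.05% in WT, by a peak of 58 reads that ended 0.81 kb upstream of the start, and not in mdx or mdxTLR4-/-. Pfkm was covered over 13.1%, 13.1% and 3.05%, by peaks 8.61 to 15.4 kb inside the gene with 117 reads in WT, 147 reads in mdx and 31 in mdxTLR4-/-. Mvd rose from no coverage in WT to 10.25% in mdx and 14.0% in mdxTLR4-/-, upstream of its start, so that in mdx it carried H3K27ac over the start and H3K27me3 from 3.38 kb upstream. In counts, coverage was higher in mdx than in WT at Mvd (1 of 43, against 4.90%) and lower at Pgam2 and Idh2 (2 of 43, against 5.51%). From mdx to mdxTLR4-/- it was higher at 0 genes (2.52%) and lower at Pfkm and Pgam2 (2 of 43, against 7.73%). From WT to mdxTLR4-/- it was higher at Mvd (1 of 43, against 2.61%) and lower at Pfkm, Pgam2 and Idh2 (3 of 43, against 8.41%).

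**Figure D5:**
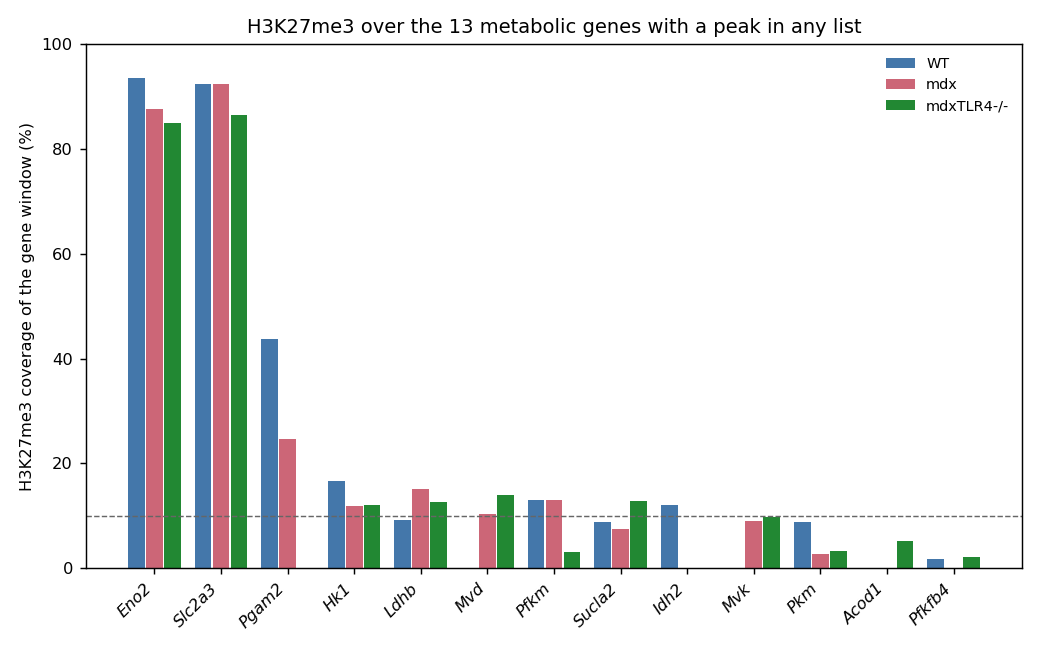
H3K27me3 coverage (y axis, percent of the gene body with 5 kb before it and 1 kb after it) for the 13 genes with a peak in any list, as bars for WT, mdx and mdxTLR4-/- without replicate error; the dashed line marks 10%. Eno2 and Slc2a3 stood above 84% in each list, and Pgam2 fell from 43.65% in WT to 24.7% in mdx and to no coverage in mdxTLR4-/-.

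Sucla2 was covered over 8.85%, 7.55% and 12.8%, inside the gene, and so passed 10% in mdxTLR4-/- alone. At 4 further genes coverage stayed under 10% in each list. Mvk had no coverage in WT, 8.92% in mdx and 9.815% in mdxTLR4-/-, at the far end of the gene. Acod1 had a peak in mdxTLR4-/- alone, 29 reads from 4.18 to 5.58 kb upstream, covering 5.28%. Pkm was covered over 8.88%, 2.67% and 3.36% by a domain that held the start of Gramd2. In WT this domain began 21.4 kb downstream of the Pkm start, inside the end of the gene. In mdx and mdxTLR4-/- it began 23.2 and 23.0 kb downstream, past the end. Pfkfb4 was covered over 1.77% in WT and 2.20% in mdxTLR4-/-, by a domain upstream that held the start of Ucn2, and not in mdx.

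Both marks were listed for the same gene in the same list at 5 genes in WT (Pfkm, Pkm, Pfkfb4, Idh2 and Sucla2, 11.6%, against 5.89%), 4 in mdx (Pfkm, Pkm, Sucla2 and Mvd, 9.30%, against 5.17%) and 4 in mdxTLR4-/- (Pfkm, Pkm, Pfkfb4 and Sucla2, 9.30%, against 5.18%). Pfkm, Pkm and Sucla2 were thus listed for both marks in each genotype, with H3K27ac near the start and H3K27me3 further along. The shares with both marks are over all genes, and members had an H3K27ac peak more often than other genes did. Among genes with such a peak, both marks were listed at 5 of 28 members in WT, against 1292 of 7015 protein-coding genes. The counts were 4 of 25 against 1135 of 6019 in mdx, and 4 of 21 against 1136 of 6457 in mdxTLR4-/-. On this basis members lay near the background. Of the genes with at least 10% H3K27me3, an H3K27ac peak near the start was listed for 2 of 6 in WT (11.5% of such protein-coding genes), 2 of 7 in mdx (8.79%) and 1 of 6 in mdxTLR4-/- (9.15%). Of those without H3K27me3, one was listed for 23 of 33 (42.3%), 21 of 33 (37.9%) and 17 of 32 (39.8%).

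The other 56 genes of the same pathways, the pentose phosphate enzymes among them, lay nearer to all protein-coding genes for H3K27ac in WT and mdx, but not in mdxTLR4-/-. An H3K27ac peak near the start was listed for 29 in WT (51.8%), 26 in mdx (46.4%) and 28 in mdxTLR4-/- (50.0%). Of the 56, 19 were listed throughout (33.9%, against 21.1% of protein-coding genes). Idh3g, Dhcr7 and Acat2 showed the pattern of WT and mdx without mdxTLR4-/- (5.36%, against 2.77%). Among genes with a peak in both WT and mdx this was 13.6%, against 11.6%. At least 10% H3K27me3 was found at 15, 13 and 12 of the 56 (26.8%, 23.2% and 21.4%, against 29.4%, 30.2% and 28.1%). Pdk2, a kinase that shuts pyruvate out of the citrate cycle, rose in coverage from 44.1% in WT to 56.4% in mdx and 92.4% in mdxTLR4-/-. Insig1, which holds back sterol synthesis, had 21.3% coverage in WT and none in the other lists, with 22, 21 and 18 H3K27ac reads. Mdh1b, a relative of the malate dehydrogenases, had 55.95%, 51.7% and 22.4%, with 8 H3K27ac reads in WT, none listed in mdx and 7 in mdxTLR4-/-. Hkdc1, a neighbour of Hk1, had 76.4%, 71.0% and 53.5%, and Pcx, pyruvate carboxylase, had 86.1%, 83.7% and 73.8%. The testis isozymes Eno4 and Ldhc had 70.5%, 85.2% and 82.9% and 15.7%, 32.3% and 19.2%, both highest in mdx, and Idi2, an isomerase of isopentenyl diphosphate, had 52.1%, 33.6% and 36.5%. Both marks also met at Idh3b, with 6 H3K27ac reads and 15.5% coverage in WT, at Fdps, with 9 reads and 16.8% in mdx and 6 reads and 12.6% in mdxTLR4-/-, and at Pmvk, with 6 reads and 8.79% in mdxTLR4-/-.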

How the data were processed

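ChIP-seq of H3K27ac and H3K27me3 in BMDM was used as 6 peak lists. The submitters' processing notes name CASAVA 1.8, cutadapt 1.15, Bowtie2 2.3.4 and SICER 2.0. Per the methods, the authors mapped reads to mm10, pooled replicates and ran SICER2 (window 200 bp, gap 600 bp, FDR below 0.01). The deposited peaks carry the ChIP read count that the authors obtained, unscaled and without subtraction of input. Duplicate removal is not given in the sources used here. Merging hides the spread between mice, and unequal depth moves which peaks pass the limit.

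Genes came from GENCODE vM21. Of 2 coding records named Aldoa the one that matched RefSeq was kept. Peaks overlapping a window by 1 bp counted. Ratios of reads carry exact Clopper-Pearson intervals (95%) that cover counting error only, and PCR reads are not independent molecules. No test was run, since each genotype had 1 list. The members and lists were chosen with earlier results of these data known. Genes named in full were those whose H3K27ac peak differed between lists, those with at least 10% H3K27me3, those with the most and fewest reads of each role in WT, and other pathway genes with a change of 10 points or both marks; others were added after their values were seen. A pathway gene that met this rule is not reported here. The scripts were tested on simulated data and ran in Python 3.11.15 with numpy 2.4.6, pandas 2.3.3, scipy 1.17.1 and matplotlib 3.10.9.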

Additional observations from a re-analysis of the deposited data

How the results depend on the processing

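Of 72 values recomputed under alternatives, 54 stayed within the limits set for them. The medians of H3K27ac ratios depended on scaling: scaled to 1000000 reads in peaks they were 1.09 for mdx to WT and 1.01 for mdxTLR4-/- to WT, both turned above 1, and per kb of peak 1.01 for mdxTLR4-/- to mdx, also turned, and 0.865 for mdxTLR4-/- to WT. Per kb relative to the 1st percentile of density, the latter was 0.757. With peaks of at least 10 reads, 13 genes were listed for H3K27ac in mdxTLR4-/- (30.2%, against 17.0% of protein-coding genes). With a limit of 20% or 20 points for H3K27me3, 3 genes passed in WT, 3 in mdx and 2 in mdxTLR4-/-, and 0 differed between WT and mdx, 1 between mdx and mdxTLR4-/- and 1 between WT and mdxTLR4-/-. With a window of 2 kb either side of the start, 4 passed in mdx and 3 in mdxTLR4-/-. With peaks of at least 1.5 times the 1st percentile of density, 2 passed in WT, 6 in mdx and 4 in mdxTLR4-/-, where 6, 7 and 6 had passed without it, and 1 differed between mdx and mdxTLR4-/- and 1 between WT and mdxTLR4-/-. With lists reduced to equal numbers of peaks, 1 differed between mdx and mdxTLR4-/-. The 1st percentile of density was 15.46 reads per kb in WT, 18.0 in mdx and 14.12 in mdxTLR4-/-, so the limit differed between lists. Shares of protein-coding genes under these H3K27me3 settings are not given, so these counts are not set against a background. For these counts the cause was not tested. Leaving out peaks that held only the start of another coding gene, chosen after seeing the data, gave 26, 23 and 19 genes with H3K27ac, without a background share. No paired analysis was possible because the replicates were merged before peak calling, and for the same reason no replicate could be left out. The shallow H3K27ac peaks limit what can be read from a missing peak.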

Other observations

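Counting every annotated coding start of a gene instead of the gene start alone brought Hif1a into the H3K27ac counts in WT and mdx and Hk1 into all 3 lists, with 30 genes in WT (33.9% of protein-coding genes), 27 in mdx (29.1%) and 22 in mdxTLR4-/- (31.4%). For Hk1 the reads at coding starts were 32 in WT, 23 in mdx and 22 in mdxTLR4-/-, a ratio of mdx to WT of 0.719 (95% counting interval 0.402 to 1.27). Of the 2 genes, Hif1a was the one with more reads in mdx than in WT.

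The reads per kb of the H3K27me3 peaks differed between lists for protein-coding genes in general. From WT to mdx the density ratio was 1.20 for the median protein-coding gene, 1.21 for Eno2 (95% counting interval 1.07 to 1.36), 1.26 for Hk1 (1.10 to 1.44) and 1.27 for Slc2a3 (1.22 to 1.33), whose interval lay above the median gene. From mdx to mdxTLR4-/- it was 0.812 for the median gene, 0.829 for Eno2, 0.80 for Hk1 and 0.809 for Slc2a3, with intervals that held the median gene, and 0.649 for the domain past the end of Pkm (0.551 to 0.764), which lay below it. The mean coverage of the 43 genes was 6.98% in WT, 6.38% in mdx and 5.74% in mdxTLR4-/-, against 17.5%, 17.4% and 16.0% over all protein-coding genes.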
